A study of Mus musculus with 2 samples.

Results

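The genes described here are the ligands and receptors of the tumour necrosis factor (TNF) superfamily, read in the mammary gland of mice that carry or lack an insertion in the miR-212 and miR-132 locus. Members were chosen by symbol alone: every gene whose symbol starts with Tnfsf or Tnfrsf, with Tnf, Lta, Ltb, Ltbr, Fas, Fasl, Cd40, Cd40lg, Cd27, Cd70, Ngfr, Relt and Edar. This gave 44 of the 21113 genes in the deposited tables, 17 ligands and 27 receptors. Polyadenylated RNA was sequenced from 2 libraries of C57BL/6 mice at postnatal week 6. One came from a wild-type gland and 1 from a gland with genotype Mir212/132ILN/ILN, in which an IRES-LacZ-Neo (ILN) cassette sits in the locus on both alleles. The labels name no promoter or cell type that limits the insertion. Whether a library came from 1 animal or from pooled animals, and from which gland, was not given in the sources used here.

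Ligands of the family are mostly membrane-bound proteins that act as trimers, and some are cut free by proteases. Their receptors recruit TRAF adaptors and activate NF-kB, and a subset carries a cytoplasmic death domain that can recruit caspases. Lymphotoxin signalling through its receptor on stromal cells builds and maintains lymph nodes, BAFF and APRIL keep B cells and plasma cells alive, and several other pairs costimulate T cells. In the mammary gland the best known member is RANK ligand, which progesterone induces in luminal cells and which drives the growth of alveoli through RANK.

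Gene-assigned fragments summed to 46133338 for wild type and 42953129 for ILN/ILN, and the family took 24916 and 20555 of them. Levels are the deposited FPKM-like values, scaled for gene length and library size, and can be compared between genes. Ratios marked as fragment ratios are fragments per gene scaled by library size, with 95% exact conditional intervals in parentheses that cover counting error only. PCR copies were not told apart from molecules, so these intervals may be too narrow. With 1 library per genotype there is no replicate, no test and no p-value, and every difference given here is a difference between 2 libraries. In bulk RNA, fewer cells of a type and less RNA per cell cannot be told apart.

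The tissue label was checked against marker genes. Both libraries carried adipocyte, fibroblast and endothelial genes, with 0 of 16 of these past 2-fold in either direction. In ILN/ILN, however, the luminal genes Krt8 and Elf5 and the basal keratin genes Krt5, Krt14 and Krt17 had 0 fragments, where the limit is 3 fragments. The summed level of the 8 luminal genes was 39.2 in wild type and 0.929 in ILN/ILN. B cell genes (9 of 9 with at least 30 fragments, summed level 193 against 35.6) and T cell genes (10 of 10, 84.3 against 29.3) were also lower. Their part in the differences of the family members below was not tested. Mir212 and Mir132 were not analysed here, and no targeted transcript checks either label.

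Most members had lower values in ILN/ILN. Of the 44 members 33 were lower, 9 were higher and 2 were at 0 in both libraries. Over all 21113 genes 8411 were lower, 8005 higher and 4697 equal. A first call asked for a 2-fold ratio of (value + 1) among genes that reach a value of 1 in 1 or both libraries, as 27 members did. Of these, 4 were lower by that margin (Ltb, Tnfrsf13c, Tnfrsf13b and Cd40), against 1.72% of 11556 genes, and 0 were 2-fold higher, against 0.407%. The other 17 members stayed under that minimum. Of the 4 called members, Tnfrsf13c (2.98 and 0.374) and Tnfrsf13b (2.59 and 0.622) passed it only through the wild-type library, where they were higher. A second call, which does not shrink low genes, asked for a 2-fold fragment ratio among genes with at least 30 fragments over both libraries. Of 33 members with that depth 11 were lower, against 5.62% of 13702 genes, and 0 were higher, against 1.40%. They were Ltb, Lta, Tnfsf13b and Fasl among the ligands and Tnfrsf13c, Tnfrsf13b, Ngfr, Tnfrsf26, Cd40, Cd27 and Tnfrsf18 among the receptors.

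The medians of ligands and receptors were computed on both scales, and no difference between them was tested. On the log2(value + 1) scale the median difference, ILN/ILN minus wild type, was -0.27 for the 8 measured ligands and -0.27 for the 19 measured receptors, with 0.02 over all measured genes. From fragments the medians were -0.64 for 10 ligands and -0.45 for 23 receptors, with 0.01 over all genes of that depth. The intervals of 6 members lay wholly beyond 2-fold lower (Ltb, Lta, Tnfrsf13c, Tnfrsf13b, Cd40 and Ngfr), and those of 11 members included equality. The share of all genes with such intervals was not computed, so whether these 2 counts are unusual is not known. These medians and counts cover only the genes that passed a minimum, which a gene can pass through the library where it is high.

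**Figure D1:**
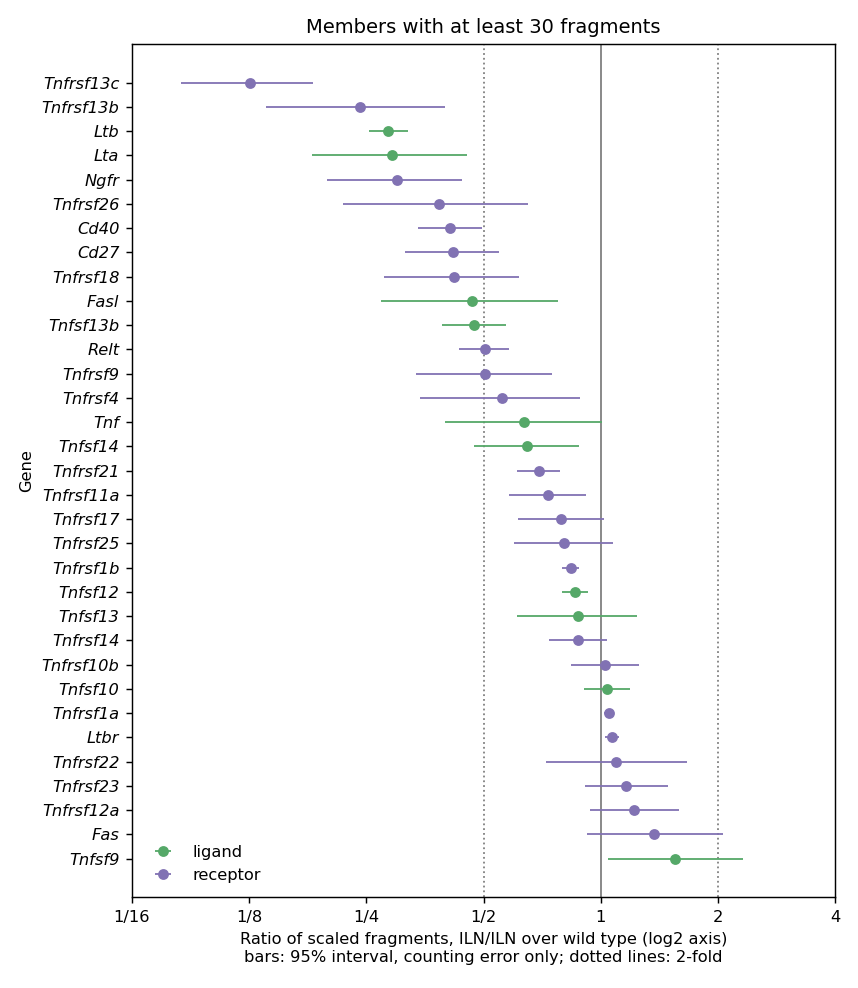
Fragment ratio of each of the 33 members with at least 30 fragments, ILN/ILN over wild type on a log2 axis, with 95% intervals for counting error from 1 library per genotype. Tnfrsf13c lies lowest at 0.126, Tnfsf9 highest at 1.55, and Tnfrsf1a and Ltbr lie near 1 with narrow intervals.

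The lymphotoxin and TNF ligands were the first role group. Ltb, the membrane anchor of the lymphotoxin heterotrimer, had a level of 28.2 in wild type and 8.02 in ILN/ILN, from 1434 and 380 fragments. It was 3.51-fold lower in ILN/ILN (3.13 to 3.94). Lta, which encodes the secreted partner chain lymphotoxin alpha, was at 1.47 and 0.427, from 96 and 26 fragments, or 3.44-fold lower (2.21 to 5.52). Tnf itself, the inflammatory cytokine made by macrophages and lymphocytes, was at 0.720 and 0.458. Its 54 and 32 fragments gave a ratio 1.57-fold lower, and the interval reached equality (0.996 to 2.51). The 3 genes lie side by side on chromosome 17 in the order Ltb, Tnf, Lta.

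Because these neighbours were all lower, their promoters are shown with that of Tnfrsf13c, the receptor with the lowest fragment ratio. Each is 250 bases before to 50 bases after the annotated start, from RefSeq on GRCm38.p6, written 5′ to 3′ on the gene's strand. Ltb is at chr17:35194257-35194556 on the plus strand, Tnf at chr17:35201958-35202257 on the minus strand, Lta at chr17:35205302-35205601 on the minus strand and Tnfrsf13c at chr15:82224331-82224630 on the minus strand. Capitals mark a match to the NF-kB consensus, searched on both strands.
Ltb: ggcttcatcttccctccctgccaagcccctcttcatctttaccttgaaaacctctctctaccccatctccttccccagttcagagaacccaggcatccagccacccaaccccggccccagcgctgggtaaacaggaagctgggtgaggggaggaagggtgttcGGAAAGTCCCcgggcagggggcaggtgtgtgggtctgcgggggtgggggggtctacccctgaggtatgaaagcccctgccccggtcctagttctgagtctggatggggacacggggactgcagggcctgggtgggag
Tnf: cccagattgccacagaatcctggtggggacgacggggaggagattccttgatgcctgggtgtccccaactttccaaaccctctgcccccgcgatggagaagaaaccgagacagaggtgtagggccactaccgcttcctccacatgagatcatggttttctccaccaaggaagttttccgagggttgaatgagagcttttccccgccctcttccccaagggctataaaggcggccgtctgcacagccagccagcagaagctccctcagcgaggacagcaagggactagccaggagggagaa
Lta: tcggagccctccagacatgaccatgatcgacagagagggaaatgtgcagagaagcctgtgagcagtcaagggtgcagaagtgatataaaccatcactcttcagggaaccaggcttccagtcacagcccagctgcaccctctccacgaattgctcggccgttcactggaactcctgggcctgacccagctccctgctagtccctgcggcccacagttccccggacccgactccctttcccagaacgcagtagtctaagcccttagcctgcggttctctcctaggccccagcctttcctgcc
Tnfrsf13c: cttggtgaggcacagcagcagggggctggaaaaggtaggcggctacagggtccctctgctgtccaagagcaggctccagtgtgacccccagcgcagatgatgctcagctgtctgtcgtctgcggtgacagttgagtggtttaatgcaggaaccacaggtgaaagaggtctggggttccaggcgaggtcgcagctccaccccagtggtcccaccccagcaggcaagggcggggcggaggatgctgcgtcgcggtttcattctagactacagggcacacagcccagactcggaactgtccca

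Ltb held 1 match, on the opposite strand, from 87 to 78 bases before the start, while these windows of Tnf, Lta and Tnfrsf13c held 0. Of the 34 members that have a promoter there, 4 held a match (Ltb, Tnfrsf8, Tnfrsf9 and Tnfrsf25). Of 32851 promoters of that length 8.46% held one. Members were counted per gene and the larger set per promoter, so these values are not in the same unit. The count is not read as a result about the members. Matches of Tnfrsf8 and Tnfrsf9 overlap each other on both strands. Of the 4 genes with a match, Ltb was 3.51-fold lower, Tnfrsf9 1.98-fold lower (1.34 to 2.98) and Tnfrsf25 1.24-fold lower (0.928 to 1.67), and Tnfrsf8 had 8 and 9 fragments. A match describes the letters of the window and is not a measured binding site.

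The receptors of this group differed little. Ltbr, the lymphotoxin beta receptor of stromal and epithelial cells, was at 44.8 in wild type and 47.7 in ILN/ILN, a fragment ratio of 1.07 (1.02 to 1.11). Tnfrsf1a, the widely expressed TNF receptor with a death domain, was at 87.8 and 92.2 (1.05; 1.02 to 1.08). Tnfrsf1b, the TNF receptor of leukocytes and endothelium that lacks a death domain, was at 14.3 and 11.9, or 1.2-fold lower (1.14 to 1.26). The level of Ltbr was thus 1.59 times that of Ltb in the wild-type library and 5.95 times in ILN/ILN.

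**Figure D2:**
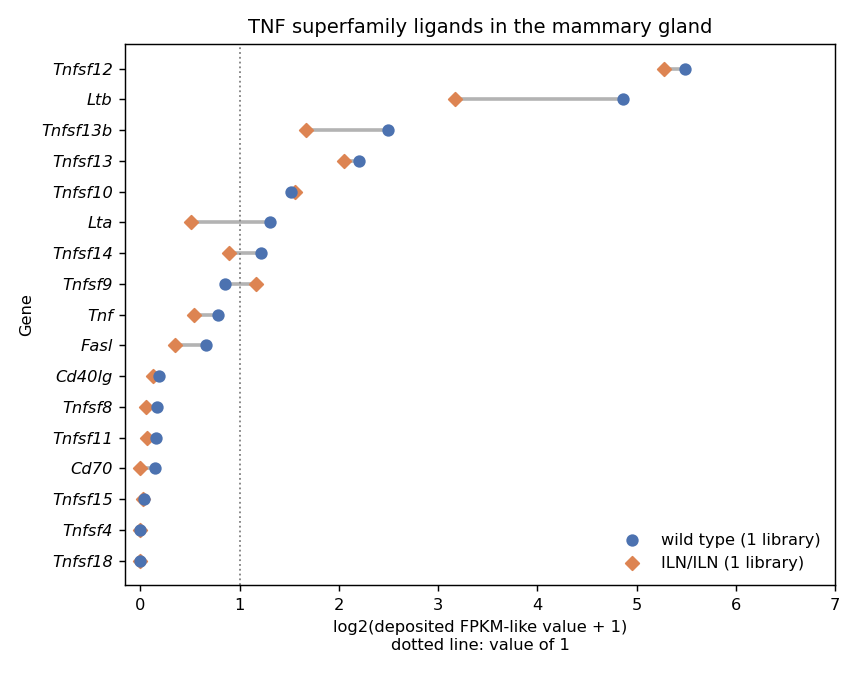
Level of each of the 17 ligands as log2(deposited value + 1) in the wild-type (circles) and ILN/ILN (diamonds) library, ordered by the wild-type level. Tnfsf12 leads in both libraries, and the widest gap is that of Ltb, at 28.2 and 8.02 before the log.

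The B cell survival system held the receptors with the lowest ratios. Tnfrsf13c, the BAFF receptor of mature B cells, was at 2.98 in wild type and 0.374 in ILN/ILN. Its 265 and 31 fragments gave a ratio 7.96-fold lower (5.47 to 11.9). Tnfrsf13b encodes TACI, a receptor of BAFF and APRIL on B cells, and was at 2.59 and 0.622, or 4.16-fold lower (2.51 to 7.25). Tnfrsf17, which encodes the plasma cell receptor BCMA, was at 4.13 and 3.27, from 148 and 109 fragments. It was 1.26-fold lower with an interval that reached equality (0.980 to 1.63). The 3 receptors of 1 ligand pair thus had fragment ratios of 0.126, 0.240 and 0.791.

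Of their ligands, Tnfsf13b, which encodes BAFF and is made by myeloid and stromal cells, was at 4.63 and 2.19, or 2.11-fold lower (1.75 to 2.56). Tnfsf13, which encodes APRIL, was at 3.62 and 3.15, or 1.15-fold lower with an interval that reached equality (0.806 to 1.64). Both libraries held more of BAFF than of its receptor per length, with Tnfrsf13c at 0.643 times the level of Tnfsf13b in wild type and 0.171 times in ILN/ILN.

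B cell genes stand beside these values. The 9 B cell markers were 3.47-fold to 11.8-fold lower, with a median of 6.31-fold, and none was at 0 in either library. The plasma cell markers Igj, Sdc1, Xbp1 and Prdm1 had ratios, wild type over ILN/ILN, from 0.992 (Xbp1) to 2.29 (Igj). Tnfrsf13c was at 3.69% of the level of Cd79a, part of the B cell antigen receptor, in wild type and 3.78% in ILN/ILN. Tnfrsf13b was at 3.21% and 6.29% of Cd79a. The markers differed among themselves over the range above, so such percentages depend on the marker chosen. The choice of Cd79a, and of Cd3e and Csf1r below, was made with their values known.

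The costimulation receptors of lymphocytes were lower in 6 of 6 members that passed the minimum, while 47.7% of all measured genes were lower. On the (value + 1) scale 1 was past 2-fold, against 1.72% of all genes, and from fragments 3 were, against 5.62%. Of the 6, Tnfrsf9 and Tnfrsf4 passed the minimum only through the wild-type library, where they were higher, and Tnfrsf9 only through its derived estimate there. Tnfrsf8, the member of this group that did not pass, was at 0.11 in wild type and 0.133 in ILN/ILN. Cd40, the receptor on B cells and other antigen-presenting cells through which helper T cells act, was at 6.05 in wild type and 2.48 in ILN/ILN. Its 406 and 155 fragments made it 2.44-fold lower (2.02 to 2.95). Cd27, a costimulatory receptor of T cells and memory B cells, was at 5.32 and 2.31, or 2.40-fold lower from 191 and 74 fragments (1.83 to 3.19). Tnfrsf18 encodes GITR, a receptor of regulatory and activated T cells, and was at 5.91 and 2.51, or 2.39-fold lower (1.62 to 3.59). These 3 receptors had nearly equal fragment ratios, but on the (value + 1) scale Cd40 lay just inside the 2-fold limit at a log2 of -1.02 and Tnfrsf18 just outside at -0.98.

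Tnfrsf9, the 4-1BB receptor of activated T cells, was at 1.39 and 0.494, from 83 and 39 fragments (1.98-fold lower; 1.34 to 2.98). Tnfrsf4, the OX40 receptor of activated T cells, was at 1.07 and 0.594, or 1.80-fold lower (1.13 to 2.92). Tnfrsf14, the HVEM receptor found on many leukocytes and on other cells, stood apart at 7.54 and 6.59, with an interval that reached equality (1.14-fold lower; 0.963 to 1.36). Tnfrsf8, which encodes CD30, had 8 and 9 fragments. The 10 T cell markers ranged from 1.14-fold to 3.93-fold lower with a median of 2.98-fold. Cd27 was at 61.3% of the level of Cd3e in wild type and 84.2% in ILN/ILN, Tnfrsf18 at 68.1% and 91.6%, and Ltb at 325% and 292%.

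Ligands of the costimulation receptors were low in this tissue. Tnfsf4 and Tnfsf18, the ligands of OX40 and GITR, were listed at 0 fragments in both libraries. Cd40lg had 8 and 5 fragments, Tnfsf8 13 and 4, Tnfsf15 8 and 6, and Cd70, the ligand of CD27, had 4 in wild type and 0 in ILN/ILN. For Cd40lg, Tnfsf8, Tnfsf15 and Cd70 a difference was not detectable at this depth, since their intervals included equality. Tnfsf14, which encodes the HVEM and lymphotoxin receptor ligand LIGHT, was at 1.32 and 0.854, or 1.55-fold lower (1.14 to 2.12).

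Tnfsf9 and Tnfsf10 were the ligands with higher values in ILN/ILN. Tnfsf9 encodes the 4-1BB ligand of antigen-presenting cells and was at 0.802 in wild type and 1.24 in ILN/ILN. From 45 and 65 fragments the ratio was 1.55 (1.05 to 2.32), the highest of the 33 members, and it is not past 2-fold. Its receptor Tnfrsf9 was lower, so the level of receptor per ligand was 1.74 in wild type and 0.397 in ILN/ILN. The receptor level was the derived estimate in wild type but came from fragments in ILN/ILN. From fragments the wild-type level of Tnfrsf9 was 0.979 in place of 1.39, so the contrast is smaller on that estimate.

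**Figure D3:**
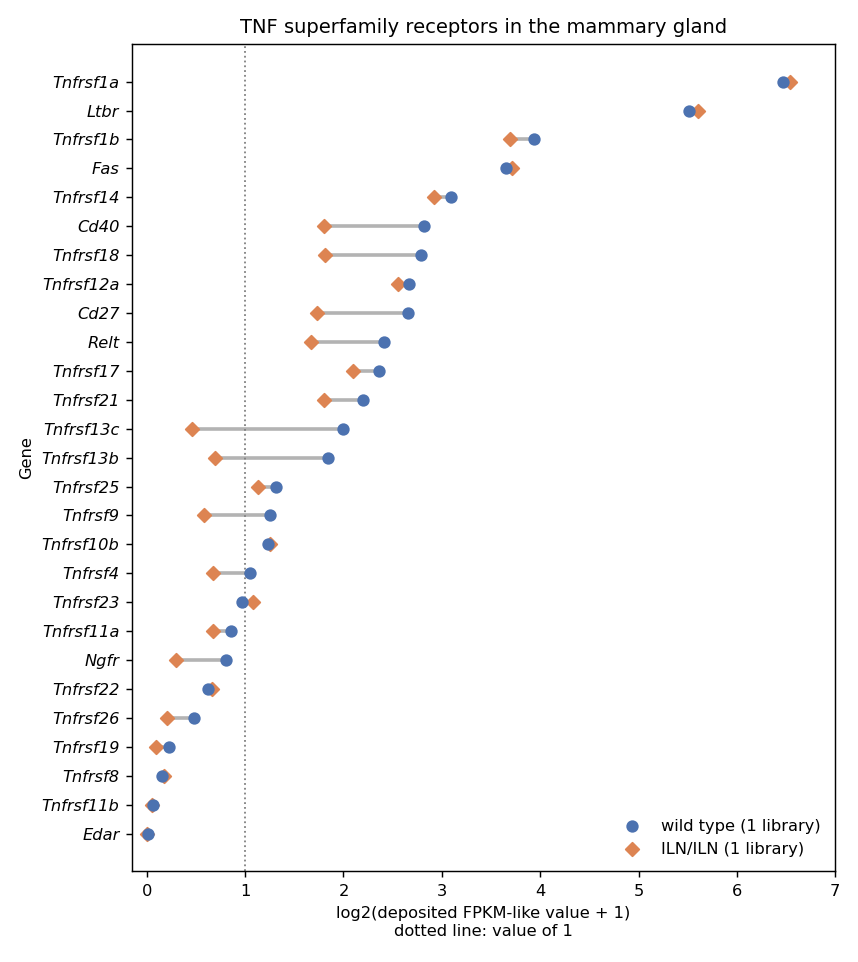
Level of each of the 27 receptors as log2(deposited value + 1) in the wild-type (circles) and ILN/ILN (diamonds) library, ordered by the wild-type level. Tnfrsf1a and Ltbr lead in both libraries with overlapping symbols, while Cd40, Tnfrsf18, Cd27, Relt, Tnfrsf13c and Tnfrsf13b lie to the left in ILN/ILN.

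The death ligands and death domain receptors had a mixed pattern. Fasl, the ligand with which cytotoxic lymphocytes kill, was at 0.586 and 0.273, from 53 and 23 fragments (2.15-fold lower; 1.29 to 3.67). Its receptor Fas was at 11.6 and 12.1, a value taken from the authors' derived estimate, and from 47 and 60 fragments over a length of only 166 bases the ratio was 1.37 (0.921 to 2.05). Tnfsf10, which encodes TRAIL, was at 1.87 and 1.94 (1.04; 0.907 to 1.19). Its receptor Tnfrsf10b was at 1.35 and 1.39 (1.03; 0.840 to 1.26). The intervals of TRAIL and its receptor thus held equality and allow a difference of up to 1.26-fold. The 4 NK cell markers were 1.58-fold to 2.32-fold lower beside Fasl.

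Tnfrsf21, the death receptor DR6, was at 3.59 and 2.49, or 1.44-fold lower from 619 and 399 fragments (1.27 to 1.64). Tnfrsf25, the death receptor DR3 of T cells, was at 1.48 and 1.19. Ngfr, the low-affinity neurotrophin receptor that marks Schwann cells and some stromal cells, was at 0.754 and 0.226. Its 122 and 34 fragments made it 3.34-fold lower (2.27 to 5.04), beside 4 Schwann cell markers whose fragment ratios, wild type over ILN/ILN, ranged from 0.949 to 2.14, with a median of 1.43. Their part in this difference was not tested. Edar, the ectodysplasin receptor of skin appendages, had 1 fragment in wild type and 0 in ILN/ILN.

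RANK ligand and osteoprotegerin were near the limit of detection, while RANK was measured at greater depth. Tnfsf11, which encodes RANK ligand, had 12 fragments in wild type and 5 in ILN/ILN, with levels of 0.114 and 0.0510. The ratio was 2.23-fold lower with an interval that reached equality (0.732 to 8.09). Its receptor RANK, encoded by Tnfrsf11a, was at 0.808 and 0.590, or 1.37-fold lower from 194 and 132 fragments (1.09 to 1.72). Tnfrsf11b, the soluble decoy receptor osteoprotegerin, had 6 and 5 fragments. Pgr, the progesterone receptor gene upstream of RANK ligand, had 13 and 0 fragments. It is 1 of 4 listed markers of hormone-sensing epithelium. Of the 3 measured ones 2 were lower and 1 was higher. The higher one was Esr1, with 1835 and 2153 fragments and a ratio of 1.26 (1.18 to 1.34).

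TWEAK was the most abundant ligand. Tnfsf12, which encodes it, was at 43.8 in wild type and 37.6 in ILN/ILN, or 1.16-fold lower (1.08 to 1.26), and made up 50% and 66.7% of the summed level of all ligands. Ltb followed with 32.2% and 14.2%. The TWEAK receptor Tnfrsf12a, also called Fn14, is induced in injured and growing cells. It was at 5.35 and 4.88 from the derived estimate, whereas from 112 and 127 fragments the ratio was 1.22 (0.938 to 1.58), so its direction depends on the estimate.

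The remaining receptors were an orphan pair and a tandem group. Relt, an orphan receptor of lymphoid tissue, was at 4.33 and 2.18, or 1.99-fold lower from 577 and 270 fragments (1.72 to 2.31), just short of 2-fold. Tnfrsf19, the orphan receptor TROY of epithelial and neural progenitors, had 17 and 11 fragments. The mouse decoy receptor genes Tnfrsf22 and Tnfrsf23 were at 0.537 and 0.589 and at 0.962 and 1.12, with intervals that included equality. Their neighbour Tnfrsf26 was at 0.397 and 0.152, or 2.61-fold lower from 56 and 20 fragments (1.54 to 4.58). These 3 genes are close in sequence, and how reads that match several places were treated was not given in the sources used here. Their values are therefore uncertain.

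The order of the levels was kept at the top and changed in the middle. Tnfrsf1a made up 40.8% of the summed receptor level in wild type and 46.5% in ILN/ILN, and Ltbr 20.8% and 24.1%. Both ranked above the other 25 receptors in each library. Cd40 went from rank 6 to rank 10, Cd27 from 9 to 11 and Tnfrsf13c from 13 to 21, while Tnfrsf17 went from 11 to 7. With 1 library per genotype, the spread of ranks is unknown, and neighbours in this order cannot be told apart beyond counting error.

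Neighbouring members did not all differ alike. In RefSeq on GRCm38.p6, 22 of the 44 members lay within 200 kb of another member, in 9 groups. Cd27, 2.40-fold lower, lies beside Ltbr and Tnfrsf1a, both within 1.07-fold of equality. Tnfrsf18 and Tnfrsf4 are neighbours and were 2.39-fold and 1.80-fold lower. Tnfsf9 and Tnfsf14 lie in 1 group with Cd70 and had ratios of 1.55 and 0.645. In that annotation 14 members overlap another gene. For 5 of them the other gene encodes a protein: Tnfrsf13b, Tnfrsf12a, Tnfrsf4, and the TWEAK and APRIL genes Tnfsf12 and Tnfsf13, which share a read-through transcript. The library kit marks strand, but its use in counting was not given in the sources used here. Values of these genes are uncertain to that extent.

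Isoforms added uncertainty for 8 members, and for 6 of these a deposited value came from the derived estimate in either library. For Cd27 both estimates were lower in ILN/ILN, at 3.52 and 1.46 from fragments and 5.32 and 2.31 derived, and for Tnfrsf18 they were 3.37 and 1.41 against 5.91 and 2.51. Tnfrsf9 used the derived estimate in the wild-type library only, and from fragments its levels were 0.979 and 0.494. For Cd40, which has 5 isoforms, the derived estimate went the other way, at 0.290 in wild type and 1.23 in ILN/ILN, while the deposited value used the fragments. How the derived estimate was made was not given in the sources used here.

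Other genes of the pathway were counted in the same way. The list held adaptors, kinases, caspase-8 and NF-kB genes, with the sheddase genes Adam10 and Adam17, the ligand gene Eda and the receptor gene Eda2r, whose symbols lie outside the rule for members. Of 42 with a row, 39 were measured, and 0 were past 2-fold on the (value + 1) scale, against 1.72% of all genes lower and 0.407% higher. That count is near the share over all genes. The log2 difference was below 0 in 27 and above 0 in 12, against 47.7% of all genes below 0, and its median was -0.08. From fragments 1 of 40 was 2-fold lower, against 5.62% of all genes, namely Rel, which encodes the c-Rel subunit of lymphocytes, with 54 and 18 fragments (2.79-fold lower; 1.61 to 5.06). Its values were under the minimum of the first call, and it was chosen after its values were seen. The measured genes with the lowest values in ILN/ILN relative to wild type, on the (value + 1) scale, were Bcl3, a nuclear partner of NF-kB, at 5.32 and 2.71 (1.96-fold lower; 1.66 to 2.32), and Ripk3, the kinase of necroptosis, at 5.45 and 2.96 (1.84-fold lower; 1.57 to 2.17).

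The adaptor gene Traf5 was at 5.69 and 3.51 (1.62-fold lower; 1.41 to 1.85), and Traf1, an adaptor induced in activated lymphocytes, at 3.85 and 2.51 (1.54-fold lower; 1.31 to 1.80). Birc3, an inhibitor of apoptosis that binds TRAF proteins, was at 17.1 and 11.5 (1.48-fold lower; 1.39 to 1.58). Nfkbib, an NF-kB inhibitor, was at 14.8 and 10.8 (1.37-fold lower; 1.25 to 1.5). These 6 were named for the size of their difference on the (value + 1) scale. From fragments the order differs: Eda had a ratio of 1.43 (1.22 to 1.68).

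Genes that lymphotoxin signalling is known to maintain in lymph nodes were lower in 6 of 6, while 47.7% of all measured genes were. On the (value + 1) scale 3 were past 2-fold, against 1.72% of all measured genes. Vcam1, an adhesion molecule of activated endothelium and stroma, was at 14.6 and 5.96 (2.44-fold lower; 2.26 to 2.64). Madcam1, the mucosal addressin, had 81 and 25 fragments (3.02-fold lower; 1.91 to 4.93). Icam1, a ligand of leukocyte integrins, was at 8.17 and 5.91 (1.38-fold lower; 1.25 to 1.53), and Ccl19, a chemokine of the T cell zone, at 14.2 and 10.4 (1.36-fold lower; 1.17 to 1.58). Glycam1 was 29.4-fold and the B cell chemokine gene Cxcl13 38.2-fold lower. Madcam1 (1.24 and 0.411) and Cxcl13 (29.5 and 0.773) passed the minimum only through the wild-type library, where they were higher. Ltb, for comparison, was 3.51-fold lower. The 8 luminal genes were lower too, at a summed level of 39.2 in wild type and 0.929 in ILN/ILN. Which cells carried the transcripts of these 6 genes was not measured. Whether lymphotoxin or luminal cells had a part in their differences was not tested.

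**Figure D4:**
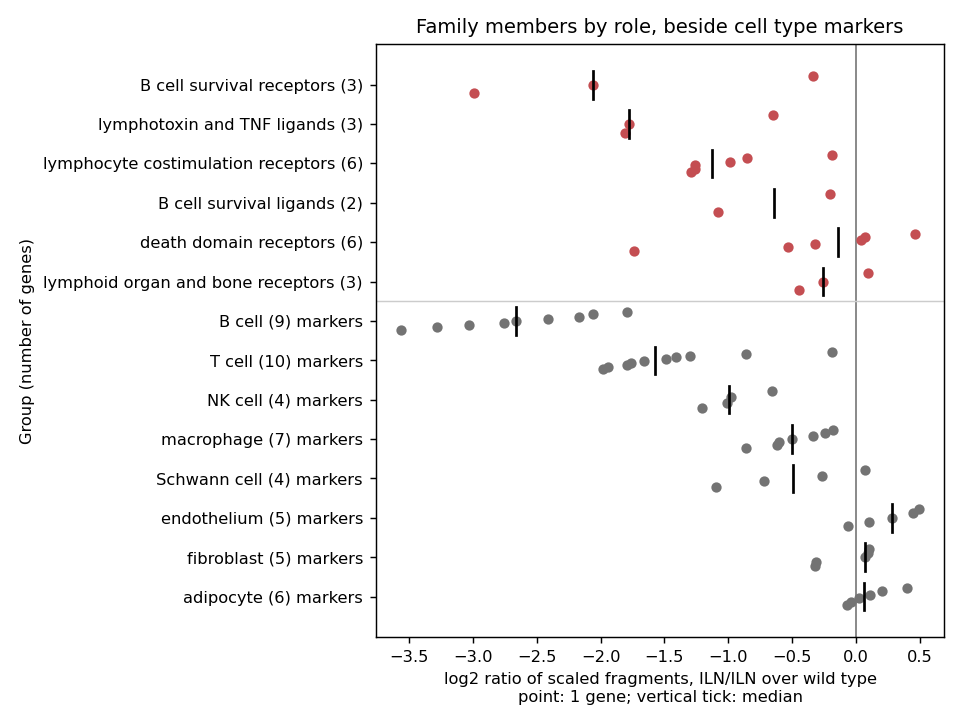
log2 fragment ratio, ILN/ILN over wild type, of each member with at least 30 fragments in 6 role groups (red) and of cell type markers (grey), with the median as a tick. B cell survival receptors and lymphotoxin ligands have medians of -2.06 and -1.78, and the adipocyte, fibroblast and endothelial markers lie around 0. The lists of luminal, basal and hormone-sensing epithelium, skin keratinocytes, neutrophils and plasma cells are not plotted. Among these, the luminal and neutrophil lists were lower in ILN/ILN.

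Marker lists framed the members. Macrophage genes, 7 of 7 with at least 30 fragments, were 1.13-fold to 1.82-fold lower (summed level 1925 against 1257), and Tnfsf13b at 2.11-fold lower was at 3.50% and 2.35% of the level of Csf1r. Neutrophil genes were 3.15-fold to 26.6-fold lower, with a median of 4.90-fold. The upper end of that range is Ltf alone, from 628 and 22 fragments. Ratios of wild type over ILN/ILN ranged from 0.758 to 1.05 for adipocyte genes, from 0.935 to 1.25 for fibroblast genes and from 0.710 to 1.04 for endothelial genes. On the same scale Tnfrsf1a was at 0.952 and Ltbr at 0.938. Which cells carried each transcript was not measured.

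The members were also searched for the seed match of the targeted microRNAs. Both mature strands share the seed, bases 2 to 8, which is in capitals in the RefSeq sequences shown here. On GRCm38.p6, miR-132-3p is at chr11:75173723-75173744 and miR-212-3p at chr11:75173443-75173464, both on the plus strand.
mmu-miR-132-3p: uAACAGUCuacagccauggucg
mmu-miR-212-3p: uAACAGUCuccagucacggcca

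The match, GACTGTT, was sought in the transcript's own strand of the longest 3′ untranslated region that GENCODE M21 gives for each gene. It occurred in 7 of 44 members (15.9%) and in 13.2% of 11348 measured genes searched. The 4 measured members with a match are shown with up to 15 bases before the match, in capitals, and 1 after it.
Tnfrsf1b: gaatgaattggaaagGACTGTTc
Tnfrsf23: cagaatatggtggctGACTGTTc
Tnfsf10: tgtgtgtgtgtgtgtGACTGTTc
Tnfsf13: ccatggctttgccttGACTGTTg

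Their log2 differences of (value + 1) were -0.24 for Tnfrsf1b, 0.11 for Tnfrsf23, 0.04 for Tnfsf10 and -0.15 for Tnfsf13, and 0 of the 4 was past 2-fold. The other members with a match, Edar, Tnfrsf11b and Tnfsf4, had 6 fragments or fewer in each library. None of the 11 members that were 2-fold lower from fragments held the match, beside 13.2% of the measured genes searched. For 11 genes that count is near that share and is not read as a result about them. A match is a description of the sequence and not a measured target.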

How the data were processed

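RNA from 1 wild-type and 1 ILN/ILN mammary gland sample was sequenced on 2 lanes each, per the labels' protocols. Build mm9, TopHat 1.4.1, Bowtie 0.12.3 and bedtools appear in the submitters' processing notes without roles. The program behind the gene tables was not given in the sources used here. Per the file headers and values, the authors deposited an FPKM-like value per gene, its log2(value + 1), and 3 signal columns per kilobase. The FPKM-like value is the final signal over 1 constant per library, which also scales the fragment ratios. Of the original and the derived signal, the final one takes whichever is larger. The original signal times the deposited length was whole, within 0.01, in 100% of genes above 0, and is called fragments here; reads and pairs could not be told apart.

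From these files, log2((ILN/ILN value + 1)/(wild-type value + 1)) and fragment ratios were computed with Python 3.11.15, pandas 2.3.3 and SciPy 1.17.1. Intervals are exact conditional (Clopper-Pearson) 95% intervals for counting error alone. PCR copies were not told apart from molecules, nor reads from pairs, so the intervals may be too narrow even for that. A count of 0 allows up to 3 fragments. Genes that reach a value of 1 in 1 or both libraries count as measured. No test was possible with 1 library per group. On 11486 real genes with simulated counting error, 95 of 100 genes made 4-fold lower and 93 of 100 made 4-fold higher passed 2-fold on the (value + 1) scale, all 200 passed from fragments, and intervals covered the true ratio in 98.0%, 92.0% and 95.3% (unchanged genes) of cases. The simulation held no difference between animals.

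The members, role groups and gene lists were chosen with earlier results of these data known. Every member could be named; from the pathway lists the 6 measured genes with the largest absolute log2 difference were named. Alternatives covered the pseudocount, the minimum, the estimate, the scaling of libraries and the fold. Sequences came from RefSeq (GRCm38.p6; 34 members had a promoter) and GENCODE M21, and coordinates are given only for them, since the files use mm9. The values of 1 single marker gene are not reported here.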

Additional observations from a re-analysis of the deposited data

How the results depend on the processing

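No paired analysis was possible because each genotype has 1 library. The number of members 2-fold lower depended on the pseudocount. With 0.1 in place of 1 it was 3 ligands and 6 receptors, against 1 and 3, and with 5 it was 0 receptors, with the ligand count unchanged at 1. With a minimum of 5 it was 1 receptor, and at 1.5-fold it was 3 ligands, 7 receptors and 2 genes of the pathway list, against 0 of those at 2-fold. Over all genes the lower and higher counts were 199 and 47 as reported, 376 and 100 with a pseudocount of 0.1, 50 and 9 with 5, 115 and 26 with a minimum of 5, and 623 and 220 at 1.5-fold. The ligand median was -0.40 with a pseudocount of 0.1, -0.15 with 5, -0.15 with no minimum and -0.95 with a minimum of 5, which left 2 ligands. The receptor median was -0.14 with a pseudocount of 5. From fragments, 16 of 33 members were lower and 1 (Tnfsf9) was higher at 1.5-fold, against 11 and 0 at 2-fold. With a minimum of 10 fragments 13 of 40 members were 2-fold lower, and with 100 it was 9 of 28, with 0 higher in each. The share of all genes was not computed for these alternatives, so whether the counts are unusual is not known. The alternatives to this count were chosen after seeing the data. Both other library scalings shifted all genes by at most 0.01 on the log2 scale. Of 135 recomputed values of single members 113 stayed inside their counting interval and 22 did not. Many of the 113 could hardly move, since they came from those scalings or from members whose value already came from fragments. The moves were under the changed pseudocounts, except those of Tnfrsf9 and Tnfrsf12a from fragments alone. Of the 135, 1 changed sign (Tnfrsf12a, -0.11 as reported and 0.22 from fragments alone). Members with under 30 fragments in all, 11 of 44, are limited by depth.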
